A study of Mus musculus with 2 samples.

Results

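The genes described here were 7 protein-coding mouse genes, Fam110a, Lif, Trp53i11, Ptp4a3, Neurl3, Hemk1 and Nsmce1. They were selected on measured values, the percentage of the gene body inside H3K36me2 regions in wild-type cells and its drop in knockout cells. The order that chose them ranked the 34 coding genes of at least 10 kb with at least 50% of the body inside wild-type regions by their drop in the knockout, and the 7 were among its first 10. They were 7 of 11214 coding genes measured, all were found in the annotation, and all held regions in both libraries. Since the drop in covered share chose the genes, that drop is given as a description and supports nothing. The last of them by rank, Nsmce1, fell by 8.77 percentage points, and the first gene outside the 10, Igsf23, fell by 7.08 points. Trp53i11 had the lowest wild-type share, 53.3%, and Inf2, with the highest share under the 50% limit, had 49.3%. Neurl3, of 10073 bp, was just over the length limit.

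The libraries came from regulatory T (Treg) cells of the spleen, 1 with a Treg conditional knockout of Nsd2 (KO) and 1 wild-type (WT), both of the C57BL/6 background. NSD2 is an enzyme that dimethylates H3K36, and a region list does not show whether its gene was deleted. Neither the driver of the deletion nor the age and number of mice, the antibody or an input control is stated in the labels. The KO library had 14789700 tags and 39745 regions, and the WT library 17158154 tags and 54527 regions. With 1 library per genotype no difference has a replicate check, no p-value is given, and a difference between genotypes cannot be told apart from a difference between libraries. Of the Treg markers, Foxp3, Il2ra and Ikzf2 held regions in both libraries and Ctla4 in neither. All 5 T cell markers held regions in both, as did 1 of 3 B cell and 2 of 3 myeloid markers, and 0 of 2 erythroid markers held any in KO against 1 of 2 in WT.

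H3K36me2 is histone H3 dimethylated at lysine 36. NSD2 and its relatives place the mark, often in wide stretches over and between genes, while SETD2 adds a further methyl group over transcribed bodies. The mark is read by DNA methyltransferase DNMT3A and hinders the Polycomb enzyme that methylates lysine 27. A region here is a stretch that the authors' caller built from 500 bp peaks, each of which had to reach 12 tags in the KO library or 13 in the WT library. Scaled to 10000000 tags per library these thresholds are 8.11 and 7.58 normalised tags, so the caller asked for more in KO. The covered share is the percentage of base pairs that lie inside regions.

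The 7 genes have no pathway in common. Fam110a encodes a protein of the centrosome and spindle poles. Lif encodes a cytokine of the IL-6 family that acts through LIFR and gp130 on STAT3. Trp53i11 was named as a gene induced by p53. Ptp4a3 encodes PRL-3, a membrane-anchored phosphatase linked to cell motility. Neurl3 encodes an E3 ubiquitin ligase of the Neuralized family, Hemk1 a mitochondrial methyltransferase that in human cells modifies a translation release factor, and Nsmce1 the RING subunit of the SMC5/6 complex of DNA repair.

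The promoter windows of 6 of the 7 genes were matched in RefSeq (GRCm38.p6, the assembly called mm10), as 9 windows of 300 bases that run from 250 before to 50 after an annotated start. The 5 printed here are the 3 with bases in regions of a single library and, for contrast, those of Lif and Neurl3, which regions of both covered. All are written 5′ to 3′ on the strand of the gene, and capitals mark each CG dinucleotide, the site of DNA methylation. Trp53i11 (chr2:93187298-93187597, plus strand) and Hemk1 (chr9:107338301-107338600, minus) lay inside a WT region and no KO region, the internal start of Fam110a (chr2:151973932-151974231, minus) inside a KO region and no WT region, and Lif (chr11:4257318-4257617, plus) and Neurl3 (chr1:36273376-36273675, minus) inside regions of both.
Trp53i11: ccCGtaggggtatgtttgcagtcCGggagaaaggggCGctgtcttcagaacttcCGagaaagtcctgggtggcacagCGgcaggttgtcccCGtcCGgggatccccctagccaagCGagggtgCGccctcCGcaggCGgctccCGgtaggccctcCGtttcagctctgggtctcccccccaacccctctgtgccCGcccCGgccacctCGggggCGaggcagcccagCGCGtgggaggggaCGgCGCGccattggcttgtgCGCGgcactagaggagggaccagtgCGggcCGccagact
Hemk1: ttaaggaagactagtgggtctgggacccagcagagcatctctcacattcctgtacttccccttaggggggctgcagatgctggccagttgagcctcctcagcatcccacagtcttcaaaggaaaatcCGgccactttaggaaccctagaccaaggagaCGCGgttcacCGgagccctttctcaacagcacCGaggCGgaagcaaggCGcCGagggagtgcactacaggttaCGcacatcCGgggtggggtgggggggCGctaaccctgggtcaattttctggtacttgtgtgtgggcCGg
Fam110a: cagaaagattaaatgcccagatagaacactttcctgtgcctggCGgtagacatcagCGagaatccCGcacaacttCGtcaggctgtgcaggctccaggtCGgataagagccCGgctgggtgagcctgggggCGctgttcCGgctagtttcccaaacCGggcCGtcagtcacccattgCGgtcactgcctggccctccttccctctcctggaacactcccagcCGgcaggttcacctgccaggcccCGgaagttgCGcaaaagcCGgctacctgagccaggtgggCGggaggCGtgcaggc
Lif: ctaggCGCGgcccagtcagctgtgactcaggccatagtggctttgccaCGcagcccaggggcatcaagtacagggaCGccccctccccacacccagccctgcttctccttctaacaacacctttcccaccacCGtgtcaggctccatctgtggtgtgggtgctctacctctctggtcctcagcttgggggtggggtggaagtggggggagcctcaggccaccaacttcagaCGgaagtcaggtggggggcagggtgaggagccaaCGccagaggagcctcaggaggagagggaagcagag
Neurl3: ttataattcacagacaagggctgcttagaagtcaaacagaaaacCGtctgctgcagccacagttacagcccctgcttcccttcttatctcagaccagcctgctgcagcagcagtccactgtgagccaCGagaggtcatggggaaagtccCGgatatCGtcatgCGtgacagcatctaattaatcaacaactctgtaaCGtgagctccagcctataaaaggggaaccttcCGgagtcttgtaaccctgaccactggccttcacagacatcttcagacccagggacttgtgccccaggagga

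The Trp53i11 window held 26 CG dinucleotides, a number reached by 17.0% of all 32619 RefSeq promoter windows. Hemk1 held 12, reached by 39.9%, the internal Fam110a start 17, reached by 31.6%, and Lif and Neurl3 7 each, reached by 52.4%. The motif TATAAA, searched on both strands, occurred in the Neurl3 window alone of the 9, and in 13.7% of all windows. Of the 9 windows, 1 had bases in a KO region alone (4.47% of all windows), 2 in a WT region alone (4.67%), 4 in regions of both (4.40%) and 2 in neither. In 1 of those 4, at the internal start of Nsmce1, the KO region covered all 300 bases and a WT region only 5. The other start windows of Fam110a, at its upstream end and at a further internal start, were those without a region. The WT region over the Hemk1 window was 500 bp long with 7.58 normalised tags. That is at the WT threshold and under the KO threshold of 8.11. By score, read as tags per 500 bp peak, the region had 14, just above the KO threshold scaled to the WT library size, 13.9 tags. The WT region over the Trp53i11 window was 2104 bp long with 28.8 normalised tags.

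Covered share was lower in KO across all 7 gene bodies, as the choice of genes requires (59.7% of all measured genes were lower). In the higher-scoring 50% of regions the difference turned to 24.6 points at Neurl3 and 3.68 points at Hemk1. Fam110a (chr2:151969396-151980219) had 28.8% of its 10824 bp body inside regions in KO and 57.9% in WT. Lif (chr11:4257568-4272514) had 41.6% in KO and 62.8% in WT. Trp53i11 (chr2:93187349-93201757) had 32.5% in KO and 53.3% in WT. These 3 genes and Ptp4a3 were the 4 of 7 that were lower by at least 20 points, a size reached by 1.71% of measured genes. Of the 34 well-covered genes 5 (14.7%) reached it, these 4 and Rhog. Ptp4a3 (chr15:73723145-73758766) had 37.0% of its 35622 bp in KO and 57.6% in WT. Neurl3 (chr1:36264602-36274674) had 52.7% in KO and 68.8% in WT. Hemk1 (chr9:107327082-107340437) had 61.4% in KO and 70.4% in WT. Nsmce1 (chr7:125467644-125491443) had 49.7% in KO and 58.4% in WT. Bases covered in both libraries made up from 27.7% of WT body cover at Fam110a to 69.9% at Hemk1, with Lif, Nsmce1 and Neurl3 between 62.5% and 65.6%. The median over the 7 was -20.7 points, against -0.32 points for the other 27 well-covered genes, of which 14 were lower and 12 higher. The 27 are what remained of the 34 once these 7 were taken from the largest drops, so this contrast follows from the choice.

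**Figure D1:**
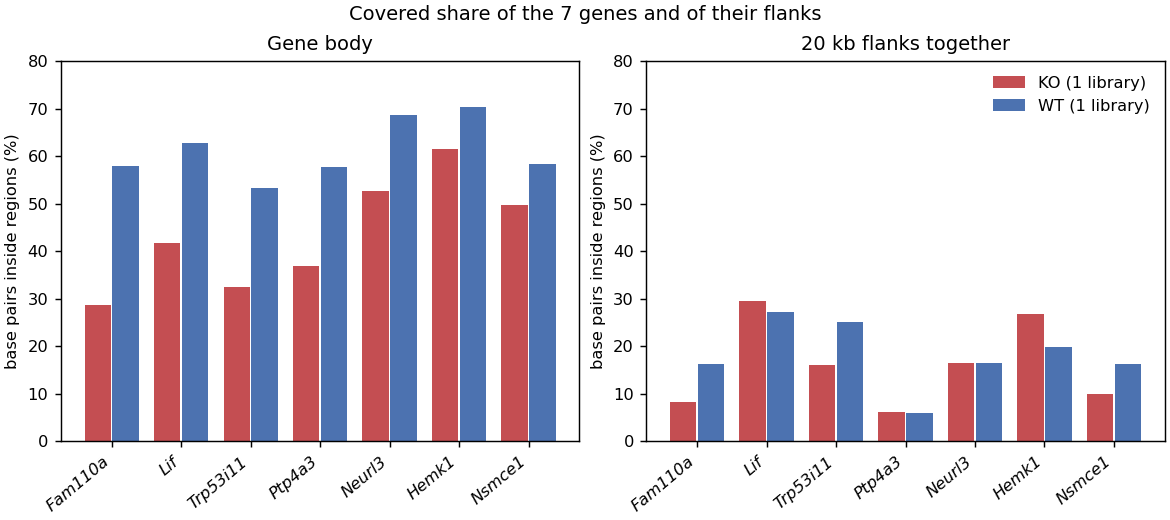
Percentage of base pairs inside H3K36me2 regions in the gene body (left) and in the 20 kb flanks on both sides, summed (right), for each gene, with 1 bar per library and no error bars because each genotype had 1 library. KO bars are lower in all 7 bodies, but in the flanks KO is lower at Fam110a, Trp53i11 and Nsmce1, higher at Lif and Hemk1, and within 0.14 points of WT at Ptp4a3 and Neurl3.

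The flanks did not follow the bodies at every gene. Flank cover, over 20 kb on either side, was lower in KO at 3 of the 7 genes (58.4% of measured genes with a region in a flank were lower). At Fam110a it was 8.23% in KO and 16.4% in WT, at Trp53i11 16.0% and 25.2%, and at Nsmce1 9.91% and 16.3%. Ptp4a3 had 2477 bp of flank inside regions in KO and 2422 bp in WT, and Neurl3 6618 bp in KO and 6583 bp in WT. At Lif, KO flanks had 11801 bp inside regions and WT flanks 10917 bp, and at Hemk1 10749 bp and 7955 bp. With body and flanks together, Hemk1 had 109% as much covered length in KO as in WT. Fam110a, at 49.97%, had the smallest percentage of the 7. Over the 7 windows KO regions covered 97837 bp and WT regions 125121 bp, or 78.2%, beside 74.3% over chromosomes 1 to 19 and X and 99.5% in the windows of the other 27 well-covered genes. The windows include the bodies whose drop chose the genes, so the contrast with the 27 follows in part from the choice.

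The lower cover could come from whole regions that had no KO counterpart, or from WT regions broken up by uncovered stretches. It could also come from regions that ended earlier or lay shifted. These parts were measured base by base, and border bases include both an earlier end and a shift. At Ptp4a3 a KO region of 3940 bp, longer than its WT partner of 3785 bp, still left 635 border bases. A pair of 2006 bp in KO and 2017 bp in WT left 752. In the gene bodies 33905 bp lay in WT regions and not in KO regions. Of these bases 63.7% were at outer borders of WT regions that still shared a stretch with KO, 27.7% were in WT regions without any KO base, and 8.61% were in inner gaps between KO-covered stretches of the same WT region. Border bases were the largest kind in the bodies as deposited, and Ptp4a3 alone held 9675 of the 21607. That order turned under other settings: without regions under 1 kb, whole regions made up 52.0% and borders 41.9%, and in the higher-scoring 50% of regions 79.8% and 17.1%. Over bodies and flanks together, 40.4% of the WT-only bases were in whole regions, 10.1% in inner gaps and 49.5% at borders. In the flanks, 57.2% of 25598 such bases were in whole regions, 30.7% at borders and 12.1% in inner gaps. In the bodies of the other 27 well-covered genes, inner gaps made up 38.8%, borders 43.1% and whole regions 18.1%. Over all WT regions of chromosomes 1 to 19 and X, whole regions made up 79.4%.

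There were also bases in the opposite direction. The 7 bodies held 12310 bp in KO regions and not in WT regions, of which 42.0% were at borders, 29.8% in KO regions without a WT base, and 28.2% bridged stretches between WT regions. In the windows with flanks the bases of one list alone came to 32219 bp for KO and 59503 bp for WT. They made up 32.9% of KO cover and 47.6% of WT cover. At Hemk1 the order was reversed, with 6326 bp in KO alone and 4733 bp in WT alone.

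**Figure D2:**
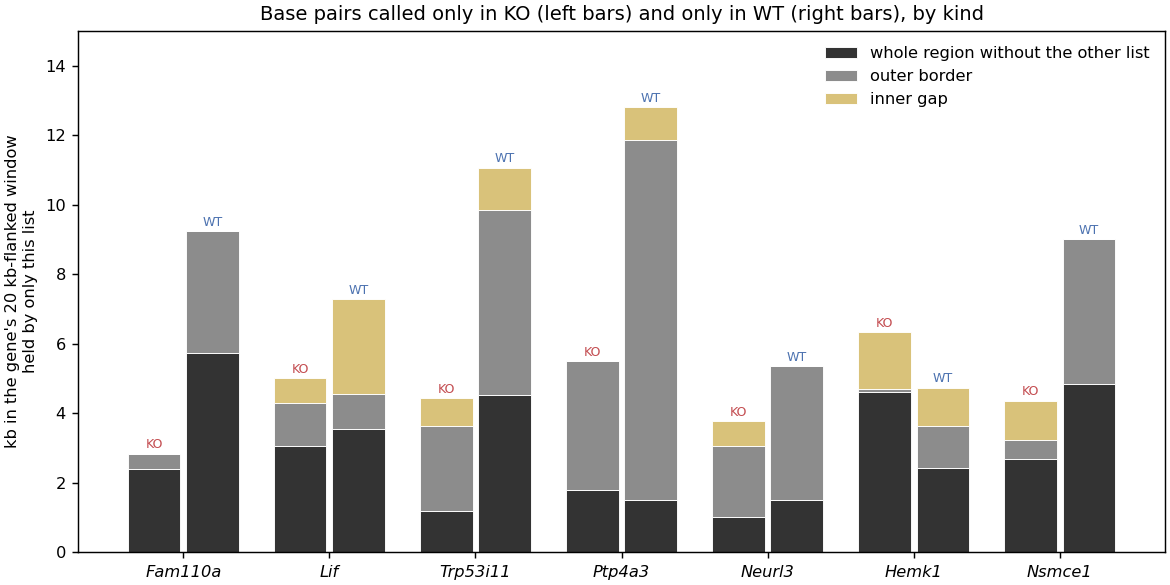
Kilobases inside regions of KO alone (left bar of each pair) and of WT alone (right bar) in each gene with 20 kb on either side, stacked by kind (whole region without a base of the other list, outer border, inner gap). Border bases made up most of the WT bar at Ptp4a3 and Neurl3, whole regions most of it at Fam110a, Hemk1 and Nsmce1, and at Hemk1 the KO bar is the taller.

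By number, the 7 windows held 69 KO regions and 81 WT regions. Of the WT regions 30 had no base in a KO region, or 37.0% (exact binomial 95% interval 26.6 to 48.5), against 70.2% of all WT regions. In the higher-scoring 50% of regions the percentage in the windows was 64.4%. Another 45 shared bases with a single KO region, and 6 with more than one (1.29% of all WT regions). Of the KO regions 19 had no base in a WT region, 27.5% (17.5 to 39.6), against 59.0% of all KO regions, and 5 overlapped more than one WT region (1.65% of all). In the windows of the other 27 well-covered genes 20.5% of KO regions (16.4 to 25.2) and 25.3% of WT regions (20.8 to 30.2) had no counterpart. The intervals cover counting error only, and regions of a window are not independent of each other. The windows also include the bodies whose drop in cover chose the genes.

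The shortest and longest WT regions differed most in sharing. Of WT regions of 500 bp and under, 16 of 21 had no KO base, and of those of at least 2 kb 1 of 24, against 84.0% and 8.25% of all WT regions in these classes. The classes between were alike, with 6 of 17 regions of over 500 bp and under 1 kb and 7 of 19 of 1 to under 2 kb lacking a KO base, against 66.2% and 38.0% of all. The single long region without a KO base was the Trp53i11 promoter region of 2104 bp. WT regions without a KO base held from 6.41 to 28.8 normalised tags with a median of 9.77, and those meeting a single KO region a median of 31.2. Of the 16 short ones, 10 had a score under 13.9 tags, which is the KO threshold scaled to the WT library size. By score these would not have been called at that threshold. The score, in tags before scaling, can exceed a region's own tags, as in a Hemk1 flank region of 500 bp. It had score 13 and 11.0 tags before scaling, or 6.41 normalised tags. By normalised tags, more than 10 of the 16 lay under the KO threshold of 8.11.

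**Figure D3:**
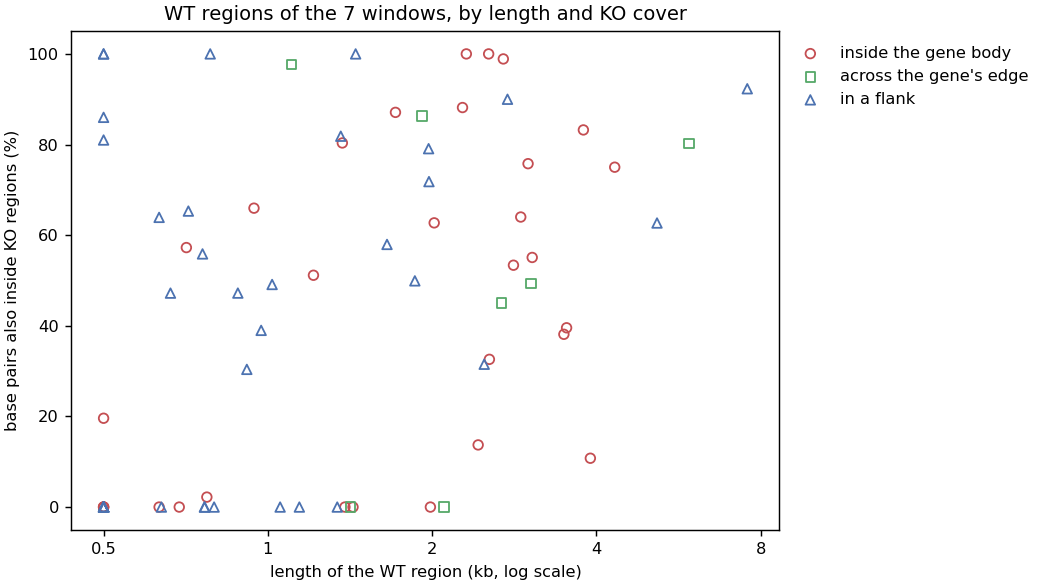
Each point is 1 of the 81 WT regions in the 7 windows, by its length (kb, log scale) and the percentage of its base pairs that also lie in KO regions, with symbols for regions inside the gene body, across its edge or in a flank. Of the 24 WT regions of at least 2 kb, 1 lies at 0%, while 16 of the 21 regions of 500 bp and under do, with many points on top of each other at that length.

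Some WT regions without a counterpart lay next to a KO region. Of the 30, 8 ended within 1 kb of a KO region (12.5% of all such WT regions), and of the 19 KO regions without a counterpart 9 lay within 1 kb of a WT region (18.9% of all such KO regions). At Fam110a a KO region of 734 bp and a WT region of 797 bp in the flank were 17 bp apart, and at the lower edge of Nsmce1 a KO region of 1680 bp and a WT region of 632 bp were 104 bp apart. Counting these as lost and gained thus depends on a small distance. Of the pairs in which a KO and a WT region met only each other, 27 of 35 were shorter in KO (47.3% of such pairs over all regions), 2 were equal and 6 longer. The choice of genes by lower body cover largely fixes this for the 18 pairs touching a body, of which 15 were shorter, with a median difference in length of -300.5 bp. Of the 17 pairs in the flanks, 12 were shorter, 4 longer and 1 equal, with a median of -132 bp. Flank cover did not enter the choice, but these regions lie beside the chosen bodies, so they are not a check free of it. Pairs in the flanks of the other 27 well-covered genes were not measured. The median was 0 bp over all 14268 pairs.

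KO regions held more tags per length than WT regions. In the 7 windows they had 18.4 normalised tags per kb in KO and 16.4 in WT, beside 17.3 and 16.0 over all regions. The higher threshold in KO goes the same way, and its part in this was not tested. The tag sums of regions touching a body, given here with exact Poisson 95% intervals for counting error, do not include tags outside regions. Fam110a held 57.5 normalised tags (45.9 to 71.1) in KO and 92.4 (78.8 to 108.2) in WT, Trp53i11 86.6 (72.2 to 102.9) and 139.6 (122.7 to 158.7), and Ptp4a3 243.1 (218.3 to 269.2) and 317.0 (291.0 to 344.8). These sums count only tags inside regions, so they follow the covered length that chose the genes and support nothing beyond it. Lif held 122.8 (105.8 to 142.3) in KO and 154.5 (136.4 to 174.2) in WT, and Neurl3 154.5 (135.4 to 176.2) and 174.3 (155.1 to 195.2). Hemk1 held 148.8 (129.7 to 169.8) and 178.6 (158.9 to 199.5), and Nsmce1 244.8 (220.2 to 271.3) and 257.9 (234.1 to 282.8).

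**Figure D4:**
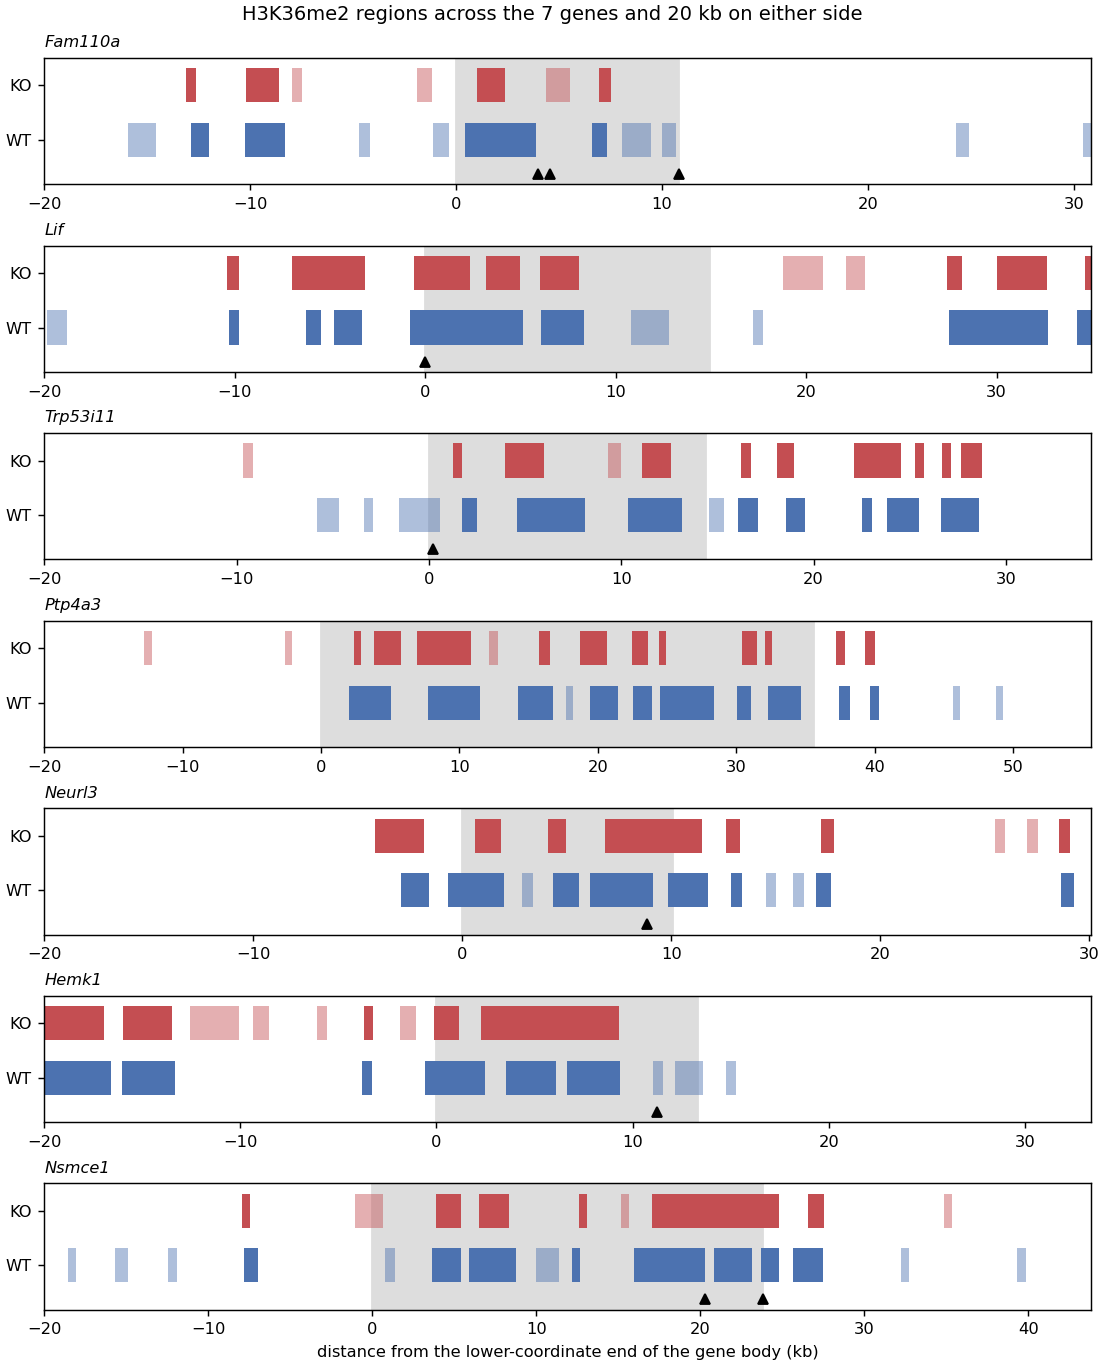
Regions of KO (upper bars) and WT (lower bars) along each gene with 20 kb on either side, by distance in kb from the lower-coordinate end of the gene body, which is shaded; pale bars have no base in the other list, and triangles mark RefSeq start sites where matched. At Ptp4a3 the long WT bars of 3898, 2546 and 2428 bp stand under KO bars of 500, 830 and 500 bp, whereas Hemk1 and Nsmce1 each have a KO bar that overlaps 3 WT bars at least in part.

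Fam110a had both a shortened region and WT regions without a KO base. Its body held 3 regions in KO and 4 in WT. The longest WT region, of 3486 bp with 48.4 normalised tags (38.5 to 60.0), met a KO region of 1329 bp with 27 (19.3 to 36.8), so that 38.1% of it remained covered. WT regions of 1384 bp and 688 bp toward the upstream end of the gene had no KO base, and a KO region of 1158 bp over the internal start had no WT base. No WT region of the body was met by more than one KO region. In its window 7 of 11 WT regions had no counterpart, and 62.0% of the 9245 WT-only bases lay in whole regions. The KO region of 734 bp in the flank contained the microRNA gene Mir1953.

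At Lif most of the WT-only bases of the body lay in 1 whole region and a gap, and the promoter was covered in both libraries. A WT region of 5907 bp with 88.6 normalised tags ran from before the start into the gene. In KO the same stretch was covered by regions of 2937 bp and 1800 bp, with 46.7 and 36.5 normalised tags, and the gap between them was 847 bp. The next region was 2065 bp in KO and 2273 bp in WT, with 39.6 and 37.3 normalised tags, whose counting intervals overlapped. A WT region of 1985 bp in the downstream part of the body, with 28.6 normalised tags, had no KO base. Of the 3230 WT-only bases of the body, 61.5% lay in that region, 26.2% in the gap and 12.3% at borders. In the upstream flank KO had 1 region of 3852 bp where WT had regions of 784 bp and 1448 bp, and downstream a WT region of 5164 bp met KO regions of 752 bp and 2599 bp. KO regions of 2068 bp and 977 bp in the downstream flank had no WT base.

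At Trp53i11 the regions of the body had shorter borders and the promoter region was absent from KO. The WT region over the promoter, of 2104 bp with 28.8 normalised tags, had its nearest KO region 678 bp away. The WT regions of 3526 bp and 2818 bp inside the gene met KO regions of 1989 bp and 1504 bp. Their normalised tags were 41.6 and 26.0 in KO, and 51.6 and 47.5 in WT. A WT region of 773 bp shared only 2.20% of its length with a KO region of 500 bp, a contact that decides its count as shared. Borders made up 88.2% of the 4765 WT-only bases of the body.

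Ptp4a3 had 10 KO and 9 WT regions in its body, and 9 of the KO and 8 of the WT regions met a region of the other library. Here 86.9% of the 11136 WT-only bases of the body were borders. The WT region of 3898 bp with 53 normalised tags (42.7 to 65.1) met a KO region of 500 bp with 8.79 (4.68 to 15), leaving 10.8% of it covered. A WT region of 2428 bp met a KO region of 500 bp, and a WT region of 2546 bp a KO region of 830 bp. The region of 3940 bp in KO and 3785 bp in WT held 76.4 (63.0 to 91.9) and 66.7 (54.8 to 79.8) normalised tags, and that of 2006 bp and 2017 bp held 33.5 and 34.7. A single WT region of the body, of 500 bp, had no KO base, and 1 of 3050 bp was met by KO regions of 500 bp and 1933 bp.

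At Neurl3 regions merged and shortened at once. A KO region of 4634 bp with 118.7 normalised tags over the start met WT regions of 2997 bp and 1914 bp, which held 67.0 and 34.7, and bridged the 711 bp between them. At the other end of the gene a WT region of 2679 bp with 46.3 normalised tags met a KO region of 1206 bp with 17.9. In the body 80.7% of the 2594 WT-only bases were borders, and the remainder was a WT region of 500 bp without a KO base.

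Hemk1 and Nsmce1, with the smallest drops, had the longest KO regions in a body. At Hemk1 a KO region of 7041 bp with 128.5 normalised tags met 3 WT regions, of 3035, 2538 and 2700 bp, and filled 1634 bp between them. WT regions of 500 bp and 1416 bp at the promoter end had no KO base, and 1112 bp of the WT region of 3035 bp lay in a gap. These made up 59.7% and 39.2% of the 2835 WT-only bases of the body. Toward the other side of Hemk1, KO had 4 flank regions without a WT base, the longest of 2478 bp with 40.2 normalised tags. At Nsmce1 a KO region of 7756 bp with 132.2 normalised tags ran over both annotated starts and met WT regions of 4320, 2310 and 1105 bp, which held 77.5, 40.2 and 19.8. WT regions of 632 bp and 1432 bp inside the gene had no KO base, while KO regions of 1680 bp and 500 bp had no WT base. Borders made up 57.1% and whole regions 42.9% of the 4813 WT-only bases of its body.

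No relative of the 7 genes in the lists examined reached 50% cover in either library. Of 11 other ligands and receptors of the IL-6 and LIF family, 7 held a region, 5 with a lower and 2 with a higher share in KO, near the 59.7% of measured genes that were lower. Osm, encoding oncostatin M, had 0% in KO and 24.8% in WT, Ctf1, encoding cardiotrophin 1, 9.07% and 0%, and Il11ra1, an IL-11 receptor chain, 0% and 5.54%. Ptp4a2, a phosphatase close to Ptp4a3, had 23.2% in KO and 6.46% in WT, and Ptp4a1 held no region. Of 6 other genes of the SMC5/6 complex 2 held regions, with Nsmce2, its SUMO ligase, at 11.3% in KO and 15.2% in WT and Smc6 at 0.85% and 0.93%.

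Of 11 other genes of the p53 response, 9 held a region, 6 with a lower and 3 with a higher share in KO, again near that 59.7%. Gadd45a, a stress-response gene of 2312 bp, had 8.35% in KO and 44.9% in WT. Bbc3, encoding the cell death protein PUMA, had 23.9% in KO and 7.59% in WT, and Cdkn1a, encoding the cell cycle inhibitor p21, 13.7% and 20.4%. Among other Neuralized genes Neurl4 had 10.3% in KO and 0% in WT, Neurl1b 11.5% and 12.3%, and Neurl1a 0% and 0.62%. Fam110b had 0.64% in KO and 0.32% in WT, and Fam110c held no region. Of 6 genes set beside Hemk1, 2 were lower and 2 higher, with Mrpl58, a mitochondrial release factor, at 14.9% in KO and 21.9% in WT, Etf1, the cytosolic release factor, at 2.60% and 0%, and Mtrf1 at 0% and 1.93%. Of the relatives, Osm and Gadd45a were lower by at least 20 points and none was higher by that much. They were 1 of the 7 with a region in the IL-6 and LIF family and 1 of 9 in the p53 response, where 1.71% of measured genes were lower by that size. Both are short, at 4242 bp and 2312 bp, so few covered bases make such a difference. The Osm bases are also part of the Lif flank.

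The genes closest to the median pair of shares of the 7, which was 41.6% in KO and 58.4% in WT, were found among measured genes of at least 10 kb by straight-line distance over the 2 libraries. They were Ski, with 41.7% in KO and 51.6% in WT at 6.82 points, Smad7, with 49.2% and 55.7% at 8.07 points, and Igsf23, with 51.0% and 58.1% at 9.41 points. Inf2, with 38.6% in KO and 49.3% in WT, and B3gnt2, with 49.1% and 52.1%, followed at 9.65 and 9.76 points. All 5 were lower in KO, by smaller amounts than the median of the 7. Drops larger than those of these 5 also occurred outside the 7: Rhog, first in the order that chose them, had 28.2% in KO and 66.7% in WT, and Zbtb7b, the sixth, 49.4% and 67.8%. Just under the 50% limit, Plxna1 had 20.9% in KO and 47.8% in WT, Rxra 27.02% and 48.2%, and Sh3gl1 27.5% and 48.6%.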

How the data were processed

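H3K36me2 was profiled with an in situ ChIP library kit, per the labels' protocols, in 1 KO and 1 WT sample. Bowtie2, HOMER, Picard, deepTools and Trim Galore are listed, with the build mm10 and no versions, per the submitters' processing notes. Per the file headers, the authors called regions with HOMER findPeaks in histone style on each library alone, with 500 bp peaks at a Poisson threshold of 0.001, stitched into regions. Each region's deposited signal, its tags after scaling to 10000000 per library, comes from the authors per the file headers. The deposited score was read as tags per 500 bp peak, since its lowest values equal the tag threshold, and the clonal ratio deposited by the authors was not used. Scaling to equal totals hides any genome-wide change in the mark.

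Overlaps were computed with pandas 2.3.3 and numpy 2.4.6, and intervals with scipy 1.17.1, under Python 3.11.15, with at least 1 bp counted as shared and coordinates as deposited. Gene positions came from RefSeq GRCm38.p6, for coding genes of at least 2 kb with a region in either library, on chromosomes 1 to 19 and X. A WT region was followed over its full length, and its bases were counted inside the window. The code was tested on simulated lists. The genes, the lists of relatives and markers, and the rules were chosen with earlier results of these data known. Named genes were the 7, their relatives with the largest differences, the 5 genes closest in both shares, and neighbours holding a region. No comparison had a test, since each genotype had 1 library. The alternatives were other flanks, filters on length and score, a common tag threshold, closed gaps and a larger overlap, with those for single genes added after the data were seen.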

Additional observations from a re-analysis of the deposited data

How the results depend on the processing

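No paired analysis was possible because each genotype had 1 library. Of 54 values that the 7 summary results took under the alternatives, 40 stayed inside a 95% binomial interval (over regions for WT regions without a KO base, in 500 bp steps for base pairs) or within 1.5 times for the count of genes, and 14 did not. Over bodies and flanks the values as reported were 40.4% whole regions, 10.1% inner gaps and 49.5% borders. The count of genes lower by at least 20 points ranged from 3 to 5 and their median difference from -28.7 to -13.4 points. When the higher-scoring 50% of regions was kept, a filter that removes long regions whose score is at the threshold, KO covered length was 64.6% of WT, 64.4% of WT regions had no KO base, and WT-only bases were 77.7% whole regions, 1.93% inner gaps and 20.4% borders. Without regions under 1 kb whole regions made up 52.8% and inner gaps 4.05%. Closing gaps of up to 1 kb gave 26.6% whole regions and 20.3% inner gaps, and of up to 2 kb 12.4% and 39.1%. In gene bodies without flanks 26.3% of WT regions had no KO base, and the kinds were 27.7% whole regions and 63.7% borders. Among single genes, Neurl3 turned to 24.6 points and Hemk1 to 3.68 points in the higher-scoring 50%, and Neurl3 moved to -47.3 points with gaps of 1 kb closed. In that 50%, Lif moved to -62.8 and Nsmce1 to -33.5 points. Alternatives for single genes and for the kinds within bodies were added after the data were seen. Within bodies, borders ranged from 17.1% to 65.6% and inner gaps from 3.09% to 44.1%. The causes of these moves were not tested. Tags below the calling threshold cannot be seen in the lists.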

Other observations

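Within the 20 kb flanks, 5 neighbouring coding genes held a region, and each had fewer covered bases in KO, where 59.7% of all measured coding genes had a lower share. Osm, next to Lif, had 0 bp in KO and 1053 bp in WT. Kdm8, a gene of the JmjC family next to Nsmce1, had 500 bp in 1 region in KO and 2647 bp in 4 regions in WT over the 16008 bp of it that lay in the window. Tspan18, a tetraspanin gene that lies 3 bp from Trp53i11, had 5917 bp in KO and 6881 bp in WT, in 6 regions each. Slc52a3, a riboflavin transporter gene near Fam110a, had 0 bp and 389 bp, and 6430571L13Rik, 203 bp from Hemk1, 0 bp and 521 bp. The Slc52a3 bases lay in a WT region of 500 bp with 7.87 normalised tags. Most of those of 6430571L13Rik lay in a WT region of 500 bp with 6.41. Both values are under the KO threshold of 8.11. By score, the Slc52a3 region, at 14, was just above that threshold scaled to the WT library size, 13.9 tags. The 6430571L13Rik region, at 13, was under it. Gpr20, near Ptp4a3, held no region in the window in either library. Among neighbours that are not coding, the long noncoding Gm32683 near Trp53i11 had 0 bp in KO and 1642 bp in WT, Gm11958 near Lif 3179 bp and 5485 bp, and Gm14154 near Fam110a 0 bp and 1340 bp. Mir1953, near Fam110a, went the other way, with all of its 89 bp covered in KO and 0 bp in WT. These counts are descriptions of 1 library per genotype, and their bases are part of the flank cover given above.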
